A study of Homo sapiens with 6 samples.

Results

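The replication-dependent histone genes are described here in 2 stable lines made from LNCaP, a human cell line derived from prostate cancer, by RNA-seq. The members are the 33 genes, of 17297 in the deposited table, whose older symbols begin with HIST1H, HIST2H, HIST3H or HIST4H. They comprise 2 linker histone genes of class H1 and 31 core histone genes, namely 6 of class H2A, 15 of H2B, 3 of H3 and 7 of H4. One line carried the empty retroviral vector (pBabe-vector) and the other carried GNA13, which encodes the G protein subunit Gα13, in the same vector (pBabe-Gα13). Cells of each line were plated as 3 biological replicates and grown for 48 h in RPMI with serum. GEO's genotype label reads WT for both lines. A single stable line stands for each condition, so a difference between the lines cannot be told apart from a difference between 2 independently derived populations. One library of each line carries the tag std in its column heading, whose meaning is not given in the sources used here. The heading number of the pBabe-vector std library is 1, which makes it replicate 1 of that line. That of the pBabe-Gα13 std library is 2, a number that another library of this line also bears, so this std library is tied to its line only. The libraries sharing the tag are taken as a pair from the tag, not from their numbers. These are called the std libraries, and the remaining libraries are replicates 2 and 3 of each line.

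Histone proteins package DNA. Dimers of H2A and H2B and a tetramer of H3 and H4 form the core of the nucleosome, and H1 binds the DNA between nucleosomes. The genes of this group are transcribed mainly in S phase, when newly copied DNA needs new nucleosomes. In their usual form their messages lack introns and a poly(A) tail. They end shortly after a short stem-loop that is bound by SLBP, the stem-loop binding protein, which is needed for 3′ end cutting, export, translation and controlled decay. Some genes of the group are known to give polyadenylated messages as well, in which transcription runs past the stem-loop. How RNA was selected for the libraries is not given in the sources used here, so a read count of these genes cannot be split into these kinds of message.

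The stem-loop was looked for in the annotated transcripts (Gencode 44, GRCh38) as GG, 3 bases of any kind, TT, any base, T, any base, A, 3 bases of any kind and CC, with the first 6 and the last 6 bases able to pair. It was present in 32 of the 33 genes, HIST1H4PS1 being the exception. Over the genome it was present in the last 100 bases of 81 of 89067 protein-coding transcripts (0.0909%). The search of the histone genes was not limited to the last 100 bases, and it counted genes rather than transcripts. The share of histone genes therefore cannot be compared with that of all transcripts. The 32 genes carried 7 different stem-loops. This element sets the usual 3′ end of the messages of these genes. Whether the counted messages end there is not known, and the only annotated transcript of HIST2H2BE runs 1729 bases past it. The following lines give 1 gene for each stem-loop, with 5 bases on either side and the stem-loop of 16 bases in capitals.
HIST2H2BE: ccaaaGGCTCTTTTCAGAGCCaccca
HIST1H2BK: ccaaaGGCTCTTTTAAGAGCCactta
HIST1H2AG: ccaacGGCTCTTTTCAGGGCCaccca
HIST1H4H: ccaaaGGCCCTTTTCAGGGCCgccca
HIST1H4I: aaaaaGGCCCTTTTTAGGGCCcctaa
HIST2H2AC: ccaaaGGCTCTTTTTAGAGCCaccca
HIST1H3E: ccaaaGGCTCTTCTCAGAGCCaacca
The form of HIST2H2BE was shared by 16 genes, that of HIST1H2BK by 5 H2B genes, and those of HIST1H2AG, HIST1H4H and HIST1H4I by 3 genes each, while HIST2H2AC and HIST1H3E each had a form of their own. The positions are chr1:149886188-149886203 (minus strand) for HIST2H2BE, chr6:27146366-27146381 (minus) for HIST1H2BK, chr6:27133515-27133530 (plus) for HIST1H2AG and chr6:26285131-26285146 (minus) for HIST1H4H. For HIST1H4I they are chr6:27139654-27139669 (plus), for HIST2H2AC chr1:149887391-149887406 (plus) and for HIST1H3E chr6:26225596-26225611 (plus). In transcripts with a coding sequence only matches past its end were kept, so a position after the stop codon follows from the search. For 16 genes at least 1 annotated transcript ends more than 100 bases past the stem-loop along the genome (long-transcript genes). For the other 16 no annotated transcript does (genes ending at the stem-loop). Whether the transcript that ends farther on contains the stem-loop was not checked. For HIST1H2BC that end lies 37155 bases past it, while the longest annotated transcript has 2548 bases and so is spliced if it reaches there.

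By position, 24 of the genes lie on chromosome 6, 8 on chromosome 1 and 1 (HIST4H4) on chromosome 12. The annotation gives 3 of them as pseudogenes, namely HIST2H2BD, HIST2H2BC and HIST1H4PS1. A total of 6 pairs of an H2A and an H2B gene stand head to head, with 218 to 247 bases between their start sites. RefSeq promoters (GRCh38.p14, from 250 bases before to 50 after the start) were found for 30 genes. The octamer ATTTGCAT, the known binding motif of OCT1 in H2B promoters, was present on either strand in 9 of 13 H2B promoters, in 4 of 6 H2A promoters and in 0 of the 11 others, against 1.8% of 27305 promoters. The 4 H2A matches are the same genomic sites as those of their head-to-head H2B genes, counted again because the windows overlap. TATAAA was present in 19 of the 30 (12% of all promoters) and CCAAT in 25 of the 30 (35.7%). The promoter of HIST2H2BE (chr1:149886633-149886932, minus strand) is printed because it faces HIST2H2AC and these neighbours changed in opposite directions between replicates. Capitals mark the octamer, TATAAA and CCAAT on either strand.
HIST2H2BE promoter: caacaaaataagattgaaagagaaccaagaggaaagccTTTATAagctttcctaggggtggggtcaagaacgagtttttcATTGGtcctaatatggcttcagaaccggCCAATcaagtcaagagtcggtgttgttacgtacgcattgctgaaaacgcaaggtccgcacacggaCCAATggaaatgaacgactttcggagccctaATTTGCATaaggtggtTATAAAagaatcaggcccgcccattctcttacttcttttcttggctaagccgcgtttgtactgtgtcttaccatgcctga
The single octamer of this window (chr1:149886721-149886728) begins at base −46 from the start of HIST2H2BE and at base −197 from that of HIST2H2AC. The same arrangement, with 1 octamer nearer to the H2B gene, was present between HIST1H2BJ and HIST1H2AG (bases −47 and −208) and between HIST1H2BG and HIST1H2AE (bases −48 and −192). Between HIST1H2BC and HIST1H2AC the shared octamer begins at similar distances from both starts (bases −123 and −130). A match is a description of the letters and was not tested for binding.

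The libraries held 33002160 to 40628970 counts, of which 9866 to 13866 per library fell on histone genes. At this depth 1 read equals 0.0238 to 0.0312 CPM (the count scaled to a common library size) after TMM scaling. GNA13 itself was at 820, 886 and 747 CPM in the pBabe-Gα13 libraries (std, replicate 2 and replicate 3, the order used throughout) and at 76.7, 69.4 and 65.4 CPM in pBabe-vector. Luminal prostate markers were high in every library, with a summed level of 8 genes between 5714 and 9611 CPM. Of 12 markers of basal epithelium, fibroblasts and blood, 9 were in the table. HBB, a red cell globin, was at 30.3, 0 and 33.5 CPM in pBabe-Gα13 and at 3.05, 0 and 3.08 CPM in pBabe-vector. KRT5, a basal keratin, was at 3.08, 0 and 3.72 CPM against 0.57, 0 and 0.59 CPM, and COL1A2, a fibroblast collagen, at 2.57, 0 and 2.53 CPM against 0.05, 0 and 0.09 CPM. These 3 genes were thus listed at 0 in both libraries of replicate 2 and were higher in pBabe-Gα13 than in pBabe-vector in the other pairs. The remaining 6 lay between 0 and 23.1 CPM. The testis histone genes looked for as a further control were not in the table.

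HIST2H2BE, HIST1H1C and HIST1H2BK together held 45.8% of all histone reads, and the first 10 genes held 80.5%. HIST1H2BH had no read in any library, and 28 of the 33 genes had a mean of at least 1 CPM. By class, H2B took 45.0% of the histone reads, H2A 20.4%, H1 15.5%, H4 11.6% and H3 7.45%. These shares count the genes present in the table, which lists 3 H3 genes, and do not give the proportions of the proteins.

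Levels were compared between genes only per kilobase of annotated exon. Among linker histones, HIST1H1C stood at 69.5 CPM per kilobase and HIST1H1E at 1.25. Among H2A genes HIST1H2AC (17.5), HIST1H2AG (16.4) and HIST3H2A (13.6) led, and among H2B genes HIST1H2BK (83.6), HIST2H2BE (27.5) and HIST1H2BG (9.72). The H3 genes stood at 12.7 (HIST1H3H), 3.17 (HIST1H3E) and 1.45 (HIST1H3B), and the leading H4 genes at 42.6 (HIST1H4I), 6.14 (HIST1H4H) and 5.58 (HIST1H4E). For long-transcript genes this value depends on how much of the annotated exon is used, and it understates a message that ends at the stem-loop.

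**Figure D1:**
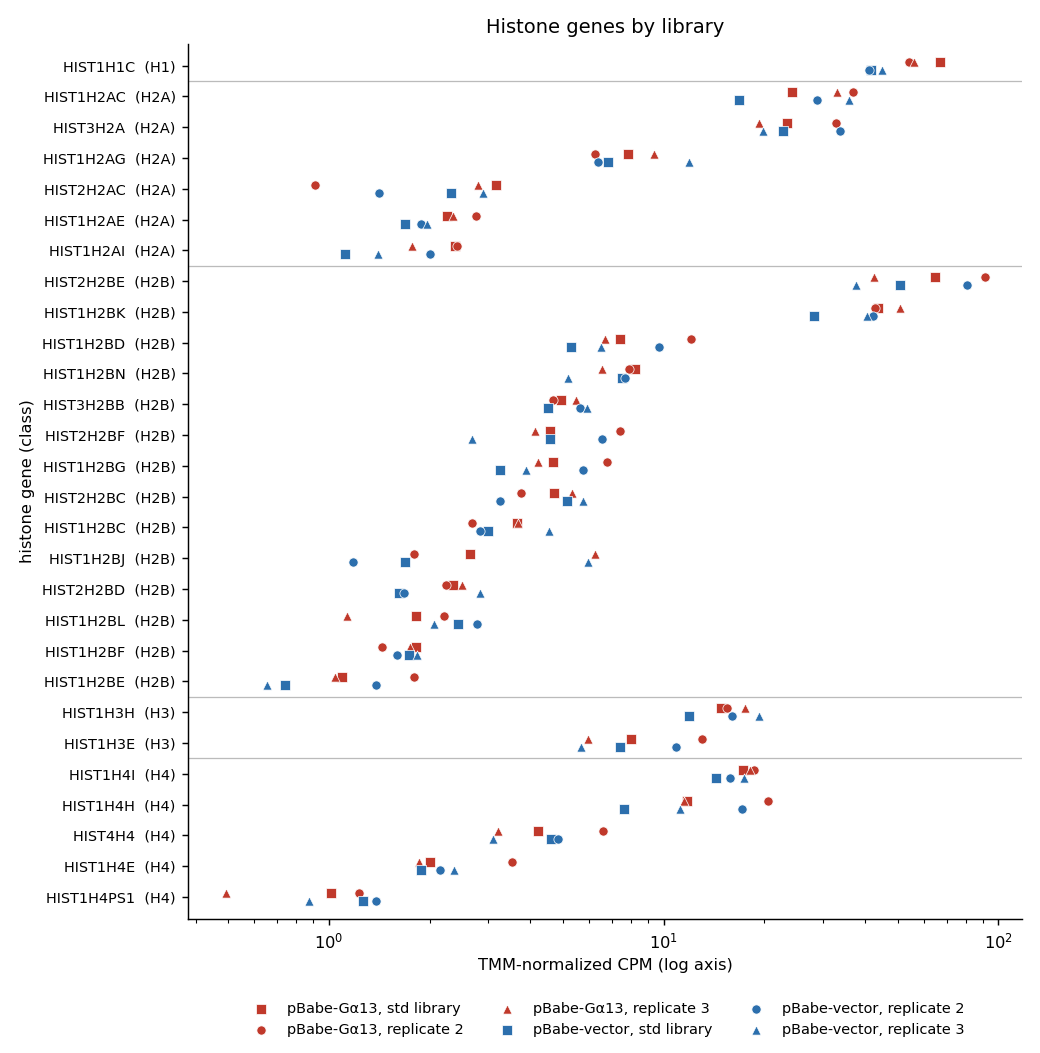
TMM-normalized CPM (log axis) of the 28 histone genes that averaged 1 CPM or more, grouped by class, with 1 symbol per library: red for pBabe-Gα13, blue for pBabe-vector, squares for std libraries, circles for replicate 2 and triangles for replicate 3. For HIST2H2BE both circles (90.9 and 80.7 CPM) lie right of both triangles (42.6 and 37.5 CPM), and for HIST1H2BJ both triangles (6.22 and 5.95 CPM) lie right of all other symbols.

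Some members could not be told apart fully from near-identical copies. Stretches of 100 bases shared with another annotated histone gene made up 94.9% of HIST2H4A, 94.4% of HIST2H2BD, 91.3% of HIST1H4K, 77.3% of HIST2H2BC and 58.8% of HIST1H2AI. The values were 22.5% for HIST1H2BK, 19.5% for HIST2H2BF and 12.7% for HIST2H2AC, and under 3% for all others, HIST2H2BE (2.59%), HIST1H1C (0%), HIST1H3B (0%) and HIST1H2BJ (0%) included. Counts of the 8 genes above 10% are uncertain to that extent. Exons of HIST2H2BF, HIST1H2BC, HIST1H2BE and HIST1H4H overlap exons annotated on the opposite strand (of FCGR1A for HIST2H2BF and of HFE for HIST1H2BC). Exons of HIST1H2AC, HIST2H2BD, HIST2H2BC and HIST3H2BB overlap those of another annotated gene on the same strand (the microRNA gene MIR4666A for HIST3H2BB), so their reads can belong to either gene. Whether counting used the strand is not given in the sources used here.

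The main comparison asked whether Gα13 expression changed these genes. Without a term for the pair of libraries, 0 of the 33 histone genes passed an adjusted p under 0.05 in edgeR's quasi-likelihood test, where 24 of 17297 genes did (0.139%, with 0.116% higher and 0.0231% lower). At an unadjusted p under 0.05 there were 2 histone genes, HIST1H3B and HIST1H1C, against 8.46% of all genes. DESeq2 called the same pair of genes among 269 of all genes (1.56%), and limma-trend called 0 of 33 and 5 of all genes (0.0289%). The median log2 fold change of the 33 genes was 0.18, against −0.0013 over all genes. Of the 32 genes with reads, 22 lay above 0 and 10 below. The difference was above 0 in all 3 pairs for 14 of the 33 genes (22.6% of all genes) and below 0 in all 3 pairs for 2 (25.3% of all genes).

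Summed over the 33 genes, the level was 348, 407 and 328 CPM in pBabe-Gα13 and 264, 358 and 307 CPM in pBabe-vector. The pBabe-Gα13 library was the higher one in each pair, by 1.32-fold (std), 1.14-fold (replicate 2) and 1.07-fold (replicate 3), while the ranges of the lines overlapped. By pair, the median log2 difference over the 33 genes was 0.28 (std), 0.21 (replicate 2) and 0.00 (replicate 3).

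HIST1H1C, the more abundant linker histone gene, was at 66.9, 54.2 and 56.0 CPM in pBabe-Gα13 and at 41.8, 41.0 and 45.0 CPM in pBabe-vector. The 3 libraries of each line did not overlap, and each pBabe-Gα13 library was above all pBabe-vector libraries. Its log2 fold change in edgeR was 0.47 (SE 0.11, adjusted p = 0.278). A two-sided exact permutation test gave p = 0.1, the smallest value possible with 3 libraries against 3. In edgeR with the replicate block the log2 fold change was 0.47 as well (SE 0.06, adjusted p = 2.71e-06). HIST1H1E, the other linker histone gene, was at 0.883, 0.881 and 0.959 CPM against 0.787, 0.856 and 1.53 CPM, with a log2 fold change of −0.21 (SE 0.32, adjusted p = 0.969 in edgeR).

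HIST1H3B, an H3 gene whose annotated transcript ends 8 bases after the stem-loop, had 38, 71 and 27 reads in pBabe-Gα13 and 7, 4 and 9 reads in pBabe-vector. In CPM these are 1.02, 2.09 and 0.785 against 0.167, 0.118 and 0.280, so that the lowest pBabe-Gα13 library was above the highest pBabe-vector library. The log2 fold change was 2.77 (SE 0.52), a ratio of 6.83, and the adjusted p in edgeR was 0.165 without the block and 2.56e-05 with it. It was the largest fold change among the 33 genes in this comparison, at a mean of 0.742 CPM. The other H3 genes differed less, with log2 fold changes of 0.17 (HIST1H3E, SE 0.34) and 0.02 (HIST1H3H, SE 0.19), and neither passed the test.

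The histone genes whose lines did not overlap were 4, all of them higher in pBabe-Gα13 (7.3% of all genes), and 0 were lower (6.79% of all genes). Besides HIST1H1C and HIST1H3B these were HIST1H2AE and HIST1H2BK. HIST1H2AE, an H2A gene, was at 2.25, 2.76 and 2.35 CPM against 1.69, 1.89 and 1.96 CPM, with a log2 fold change of 0.41 (SE 0.20, adjusted p = 0.655 in edgeR). HIST1H2BK, an H2B gene, was at 43.6, 43.0 and 50.9 CPM against 28.1, 42.2 and 40.5 CPM, with a log2 fold change of 0.31 (SE 0.17, adjusted p = 0.724 in edgeR). Its lowest value was in the pBabe-vector std library, and by pair the log2 difference was 0.64 (std), 0.02 (replicate 2) and 0.33 (replicate 3). The H2A gene HIST1H2AI was at 2.38, 2.41 and 1.77 CPM against 1.12, 2.01 and 1.40 CPM (log2 fold change 0.54, SE 0.28, adjusted p = 0.709 in edgeR), and its lines overlapped. In the other direction HIST1H2BL was at 1.82, 2.20 and 1.13 CPM against 2.43, 2.78 and 2.06 CPM (log2 fold change −0.49, SE 0.28, adjusted p = 0.750 in edgeR). HIST1H2BL and HIST1H4PS1 were the genes below 0 in all 3 pairs.

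Libraries of the same pair deviated together, and a fit blocked on the pair was therefore also made. In it, 6 of the 33 genes rose in pBabe-Gα13 and 0 fell, where 19.7% of all genes were called, 9.32% higher and 10.4% lower. In addition to HIST1H1C and HIST1H3B they were HIST1H2BK (log2 fold change 0.33, SE 0.08, adjusted p = 0.00214 in edgeR), HIST2H2BE (0.24, SE 0.05, adjusted p = 0.00233), HIST1H4H (0.30, SE 0.10, adjusted p = 0.0310) and HIST1H2AC (0.25, SE 0.08, adjusted p = 0.0373). The rises other than that of HIST1H3B were thus below 1.4-fold. In fits chosen after seeing the data, each leaving out 1 pair, the count was 5 with replicate 2 left out (14.7% of all genes called), 7 with replicate 3 left out (13%) and 3 with the std libraries left out (18.9%). HIST1H1C, HIST1H3B and HIST2H2BE were called with any pair left out. Without the block, the log2 fold change of HIST2H2BE turned to −0.0723 and that of HIST1H4H to −0.0436 when replicate 2 of pBabe-Gα13 was left out. That of HIST1H2AC turned to −0.0405 without the std library of pBabe-vector.

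**Figure D2:**
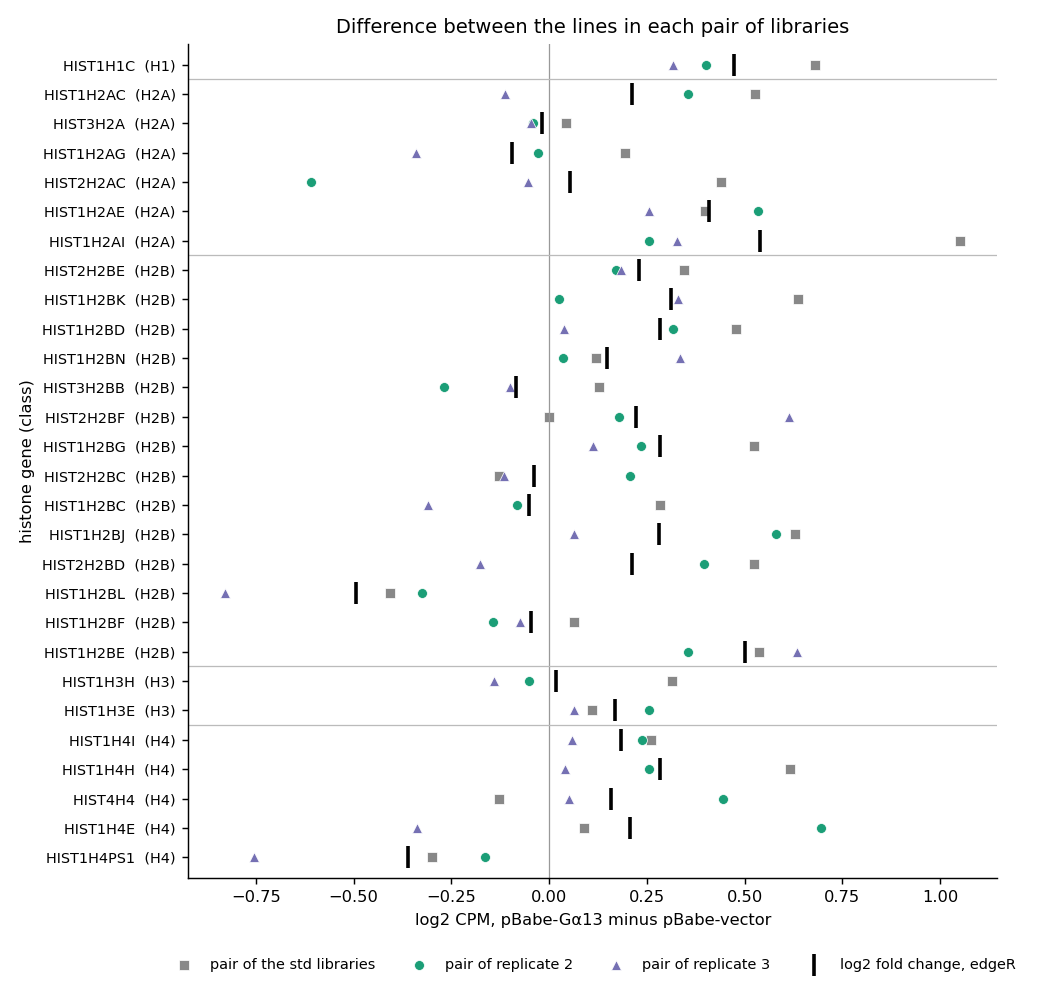
Difference in log2 CPM between pBabe-Gα13 and pBabe-vector within each pair of libraries, for the 28 histone genes with a mean of at least 1 CPM, with the log2 fold change of the edgeR fit without a block as a black bar. The 3 symbols of HIST1H1C lie between 0.32 and 0.68, all above 0, whereas those of HIST2H2AC span −0.61 to 0.44.

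Lists of genes related to histone supply were counted in the same way. Of the 11 variant histone genes in the table, 0 were called by edgeR without the block, the smallest adjusted p being 0.123 for H1FX, and 3 had an unadjusted p under 0.05. With the block, 5 rose and 0 fell. H1FX, a linker histone variant, was at 209, 208 and 238 CPM in pBabe-Gα13 and at 141, 142 and 153 CPM in pBabe-vector, with no overlap (log2 fold change 0.59, SE 0.10 without the block). H1F0, a linker histone of cells that have left the cycle, was at 202, 230 and 176 CPM against 152, 165 and 111 CPM (log2 fold change 0.51, SE 0.17, adjusted p = 0.429 in edgeR). Of 49 S phase genes 0 were called by edgeR without the block (0 at an unadjusted p under 0.05), and 4 rose and 4 fell with it. Of 21 histone mRNA processing genes 0 were called without it (0 unadjusted) and 1 rose with it (NCBP1, a subunit of the nuclear cap-binding complex). Of 19 histone chaperones 0 were called without it (0 unadjusted) and 1 fell with it (HIRA, a chaperone of an H3 variant). The 15 other genes within the chromosome 6 interval that spans the histone genes had a median log2 fold change of 0.04, against 0.21 for the 24 histone genes of that chromosome. HIST4H4 lies on chromosome 12, whose genes had a median of 0.30, and its own value was 0.16 (SE 0.30).

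The second comparison set the std libraries against the other 4, with the line as a covariate. Of the 33 histone genes 0 passed in edgeR, where 16 of all genes did (0.0925%, with 0.00578% higher and 0.0867% lower). A single histone gene, HIST1H2AC, had an unadjusted p under 0.05 (4.98% of all genes). DESeq2 called 1 histone gene, also HIST1H2AC, and 73 of all genes (0.422%), and limma-trend 0 histone genes and 1 of all genes (0.00578%). The median log2 fold change was −0.19, with 9 genes with reads above 0 and 23 below, against a median of 0 over all genes.

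HIST1H2AC, an H2A gene with a long transcript, was at 24.3 and 16.8 CPM in the std libraries of pBabe-Gα13 and pBabe-vector. In the other libraries it was at 36.7 and 33.1 CPM (pBabe-Gα13) and at 28.7 and 35.8 CPM (pBabe-vector), so the std libraries were the lowest ones. The exact permutation test of 2 against 4 libraries gave p = 0.0667, the smallest value it can give. The log2 fold change was −0.72 (SE 0.16, adjusted p = 0.902 in edgeR). HIST1H3H was the other gene whose std libraries lay below all others (6.19% of all genes did), and 0 lay above all others (8.57% of all genes). It was at 14.9 and 11.9 CPM against 15.5 to 19.3 CPM. With the pairs as a block, 5 genes were lower in the std pair and 0 were higher, where 17.5% of all genes were called, 9.72% higher and 7.77% lower. They were HIST1H2AC (−0.72, adjusted p = 2.54e-06 in edgeR), HIST1H4H (−0.61, adjusted p = 0.000175), HIST1H2BK (−0.32, adjusted p = 0.00573), HIST1H3H (−0.35, adjusted p = 0.0125) and HIST1H2BD (−0.43, adjusted p = 0.0149). For all 5 the std library lay further below the mean of the other libraries of its line in pBabe-vector than in pBabe-Gα13. In log2 CPM this was −0.56 against −0.10 for HIST1H2BK and −0.93 against −0.52 for HIST1H2AC. Against the pair of replicate 2 alone the std pair was lower for 9 and higher for 2 histone genes, where 9.07% of all genes were lower and 10.6% higher. Against that of replicate 3 alone it was lower for 5 and higher for 5, where 15.8% of all genes were lower and 17.1% higher. In the same comparison all 13 genes of the mitochondrial genome had log2 fold changes below 0, and 8 of them fell. MT-CYB, a subunit of respiratory complex III, was at 1136 and 1412 CPM in the std libraries and between 3955 and 4075 CPM in the others (log2 fold change −1.66, SE 0.12, adjusted p = 0.0444 in edgeR). RN7SL1, a non-polyadenylated RNA of the signal recognition particle, was at 52.1 and 44.3 CPM against 93.1 to 159 CPM (log2 fold change −1.44, SE 0.25), which did not pass. Of the 5 non-polyadenylated RNAs in the table, 2 fell and 0 rose with the pairs as a block, and 2 had log2 fold changes above 0. RN7SL1 was among those that fell (−1.42, SE 0.08, adjusted p = 5.36e-13 in edgeR), and all 13 mitochondrial genes fell as well. Their part in the histone values was not tested.

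The third comparison set the libraries of replicate 3 against those of replicate 2, with line and pair in the fit. It had the largest number of called members. Of the 33 histone genes 18 were called in edgeR, 5 higher and 13 lower in replicate 3, where 42.1% of all genes were called, 20.7% higher and 21.4% lower. The median log2 fold change of the 33 genes was −0.10, against 0 over all genes. Over the 32 genes with reads it was −0.26, with 15 genes above 0 and 17 below. Leaving out 1 library moved the median of the 33 genes to between −0.20 and 0.04. With 1 library of each line per replicate, this compares these cultures and their libraries and is no treatment effect. The p-values of this fit do not measure the spread between replicate cultures. The 3 comparisons share the same 6 libraries. In bulk RNA, fewer cells of a kind and less message per cell cannot be told apart. All 49 S phase genes were higher in replicate 3, with values given further on.

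By class, 0 of 2 H1 genes were called, 2 H2A genes rose and 1 fell, 3 H2B genes rose and 7 fell, 1 of 3 H3 genes fell and 4 of 7 H4 genes fell. All 18 called genes had the same sign in both lines. The fit pools the lines, which favours such genes, so this is no separate support for the calls. Called or not, 26 of the 33 members (78.8%) had the same sign, against 76.4% of all genes. A term for the difference between the lines, added after seeing the data, had an adjusted p under 0.05 in edgeR for 0 members (0.0983% of all genes) and an unadjusted p under 0.05 for 3 (4.31% of all genes). It takes the line difference of the std pair as the midpoint of the other pairs. The libraries of the 2 replicates did not overlap for 10 members higher in replicate 3 (29% of all genes) and 14 members lower in it (29.5%). Summed over the class, H2B was at 189 CPM in replicate 2 and 142 CPM in replicate 3 of pBabe-Gα13, and at 173 and 126 CPM in pBabe-vector. H1 was at 55.1 and 57.0 CPM in pBabe-Gα13 and at 41.9 and 46.5 CPM in pBabe-vector.

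Among the H2B genes, HIST2H2BE was at 90.9 CPM in replicate 2 and 42.6 CPM in replicate 3 of pBabe-Gα13, and at 80.7 and 37.5 CPM in pBabe-vector. Its std libraries lay between these, at 64.5 and 50.8 CPM. The log2 fold change was −1.10 (SE 0.07, adjusted p = 4.39e-13 in edgeR), the fall with the smallest p of the group. HIST2H2BE thus made up 22.3% and 22.5% of the histone reads in the libraries of replicate 2 and 13% and 12.2% in those of replicate 3. HIST1H2BJ went the other way, from 1.79 to 6.22 CPM in pBabe-Gα13 and from 1.18 to 5.95 CPM in pBabe-vector, with std libraries at 2.65 and 1.69 CPM. Its log2 fold change of 2.05 (SE 0.22, adjusted p = 1.56e-08 in edgeR) was the largest rise. HIST2H2BF fell from 7.43 to 4.13 CPM and from 6.56 to 2.68 CPM (log2 fold change −1.04, SE 0.17, adjusted p = 1.72e-05 in edgeR).

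HIST1H2BE, HIST1H2BD, HIST1H2BL, HIST1H2BG and HIST1H2BN, H2B genes of chromosome 6, fell by between 0.91 and 0.41 on the log2 scale. HIST2H2BC and HIST1H2BC, chosen after their values were seen as the remaining called genes, rose by 0.66 (SE 0.17) and 0.57 (SE 0.20). HIST1H2BK, at 43.0 and 50.9 CPM in pBabe-Gα13 and 42.2 and 40.5 CPM in pBabe-vector, was not called (log2 fold change 0.09, SE 0.09). The second most abundant gene, HIST1H1C, was not called either, at 54.2 and 56.0 CPM and at 41.0 and 45.0 CPM (log2 fold change 0.09, SE 0.08).

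Among the H2A genes, HIST3H2A fell from 32.7 to 19.2 CPM in pBabe-Gα13 and from 33.6 to 19.8 CPM in pBabe-vector (log2 fold change −0.76, SE 0.09, adjusted p = 3.84e-08 in edgeR). HIST2H2AC rose from 0.911 to 2.79 CPM and from 1.42 to 2.90 CPM (1.29, SE 0.27, adjusted p = 0.000265 in edgeR), which is a change from 31 to 96 and from 48 to 93 reads. HIST1H2AG rose from 6.23 to 9.36 CPM and from 6.35 to 11.9 CPM (0.75, SE 0.14, adjusted p = 9.92e-05 in edgeR). HIST1H2AC, the most abundant H2A gene, was not called (0.09, SE 0.10).

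Of the H3 genes, HIST1H3E fell from 13 to 5.93 CPM in pBabe-Gα13 and from 10.9 to 5.67 CPM in pBabe-vector (log2 fold change −1.04, SE 0.13, adjusted p = 3.22e-07 in edgeR). HIST1H3H, at 15.5 and 17.5 CPM and at 16 and 19.3 CPM, was not called (0.23, SE 0.11). Of the H4 genes, HIST1H4H fell from 20.5 to 11.5 CPM and from 17.2 to 11.2 CPM (−0.72, SE 0.12, adjusted p = 1.74e-05 in edgeR). HIST4H4 fell from 6.61 to 3.20 CPM and from 4.84 to 3.08 CPM (−0.86, SE 0.18), and the pseudogene HIST1H4PS1 fell from 1.23 to 0.494 CPM and from 1.39 to 0.873 CPM (−0.96, SE 0.35). HIST1H4K had 10 and 1 reads in the libraries of replicate 2 and 0 in those of replicate 3. With both lines pooled and 3 reads over the group as the floor, it was 3.59-fold lower. That value takes the 11 reads of replicate 2 as exact, and 10 of them came from pBabe-Gα13. The adjusted p of HIST1H4K was 0.0489 in edgeR. HIST1H4I, the leading H4 gene per kilobase, was at 18.6 and 18.1 CPM and at 15.8 and 17.4 CPM (0.05, SE 0.10).

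A total of 10 of the 18 calls were made with any 1 library left out. Calls of HIST1H2BC, HIST1H2BE, HIST1H2BL, HIST1H2BN, HIST1H2BG, HIST2H2BC, HIST1H4PS1 and HIST1H4K were each lost without at least 1 of the replicate 2 or replicate 3 libraries, and that of HIST1H4K also without either std library. Limma-trend called 11 histone genes, where it called 30% of all genes, and DESeq2 called 12, where it called 31.3%.

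**Figure D3:**
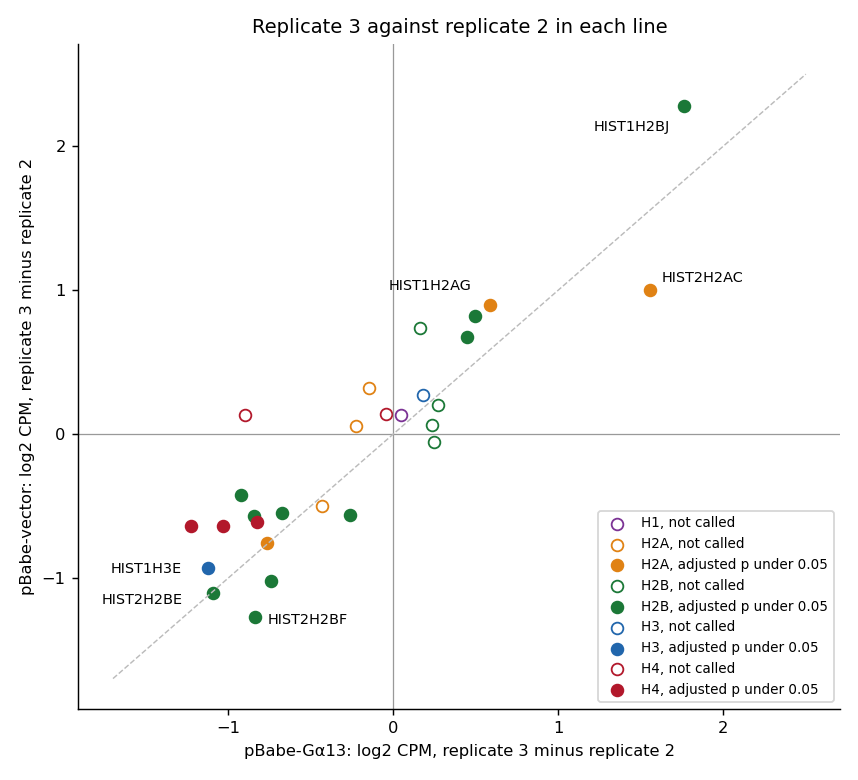
Difference in log2 CPM between replicate 3 and replicate 2 in pBabe-Gα13 (horizontal) and in pBabe-vector (vertical) for the 28 histone genes with a mean of at least 1 CPM, coloured by class and filled where the adjusted p over both lines was under 0.05. The dashed line marks equal differences. Filled points lie at the lower left, where both differences are below 0, and at the upper right, from HIST2H2BE at −1.09 and −1.11 to HIST1H2BJ at 1.76 and 2.28.

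The genes were also split by where their annotated transcripts end, which does not show that a transcript reads through the stem-loop. Of the 16 long-transcript genes, 9 fell and 3 rose between replicate 2 and replicate 3, and their median log2 fold change was −0.56. Of the 16 genes ending at the stem-loop, 3 fell and 2 rose, and the median was 0.02, with HIST1H2BH, which had no reads, counted at 0. Over all genes 21.4% fell and 20.7% rose. Summed levels of the long-transcript genes were 259 CPM in replicate 2 and 173 CPM in replicate 3 of pBabe-Gα13, and 231 and 171 CPM in pBabe-vector. Those of the genes ending at the stem-loop were 147 and 155 CPM, and 126 and 136 CPM. The long-transcript genes had the higher summed level in each library, and the difference between the 2 groups of genes was not tested. HIST1H2BJ, the largest rise, is itself a long-transcript gene, as are HIST2H2BC and HIST1H2BC.

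Head-to-head neighbours were compared within each library as the ratio of their reads, which needs no scaling between libraries. The log2 ratio of HIST2H2BE to HIST2H2AC, with 0.5 added to each count, was 6.62 in replicate 2, 4.35 in the std library and 3.92 in replicate 3 of pBabe-Gα13. In pBabe-vector it was 5.82, 4.45 and 3.69. The 2 genes flank the same 235 bases of promoter printed above, and they changed in opposite directions. For HIST1H2BJ and HIST1H2AG, 247 bases apart, both genes rose, and the ratio changed from −1.79 to −0.59 and from −2.41 to −0.99. In each of the remaining 4 pairs 1 gene was called and its neighbour was not, namely HIST3H2A, HIST1H2BC, HIST1H2BG and HIST1H2BL against HIST3H2BB, HIST1H2AC, HIST1H2AE and HIST1H2AI.

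Genes that act with histone synthesis were compared over the same libraries. All 49 S phase genes rose in replicate 3 (median log2 fold change 1.20, range 0.58 to 1.64). MCM5, a subunit of the replicative helicase, rose from 67.5 to 186 CPM in pBabe-Gα13 and from 76.1 to 211 CPM in pBabe-vector (log2 fold change 1.47, SE 0.07, adjusted p = 2.34e-15 in edgeR). FEN1, the flap endonuclease, rose by 1.53 (SE 0.08), and CCNA2, the S phase cyclin A, by 1.36 (SE 0.07). Summed over the list, S phase genes rose 2.23-fold in pBabe-Gα13 and 2.15-fold in pBabe-vector, while the summed histone genes were at 0.806 and 0.859 of their level in replicate 2. Per 100 CPM of S phase genes there were 15.3 and 12.3 CPM of histone genes in replicate 2, 9.18 and 7.55 CPM in the std libraries and 5.51 and 4.92 CPM in replicate 3. The 3 pairs of libraries did not overlap in this ratio. The summed S phase level alone already separated them, at 2669 and 2908 CPM in replicate 2, 3791 and 3503 CPM in the std libraries and 5961 and 6247 CPM in replicate 3. The summed histone level of the std libraries overlapped that of replicate 3. The order of the ratio therefore shows no separate trait of the histone genes.

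Of the 21 histone mRNA processing genes, 13 rose and 0 fell. SLBP rose from 89.8 to 156 CPM in pBabe-Gα13 and from 97.5 to 168 CPM in pBabe-vector (log2 fold change 0.79, SE 0.07, adjusted p = 1.90e-10 in edgeR). ERI1, an exonuclease that acts in histone mRNA decay, rose by 0.83 (SE 0.08) and NCBP1 by 0.49 (SE 0.06). Of the 19 histone chaperones 12 rose and 1 fell. ASF1B, a chaperone of H3 and H4, rose by 1.37 (SE 0.08), HJURP, the chaperone of the centromeric H3 variant, by 1.09 (SE 0.07) and CHAF1A, a subunit of the chromatin assembly factor CAF-1, by 1.03 (SE 0.07). Of the 11 variant histones 5 rose and 3 fell. H2AFX, the H2A variant phosphorylated at DNA breaks, rose from 167 to 427 CPM and from 164 to 383 CPM (1.28, SE 0.07, adjusted p = 3.37e-14 in edgeR), H2AFZ by 0.91 (SE 0.06) and H2AFV by 0.58 (SE 0.07).

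Luminal markers moved in the same comparison. Of 8, 5 fell and 0 rose. TMPRSS2, a membrane serine protease, fell from 1098 to 455 CPM in pBabe-Gα13 and from 969 to 415 CPM in pBabe-vector (log2 fold change −1.25, SE 0.06). KLK2 fell by 1.08 and KLK3, which encodes prostate-specific antigen, by 0.91 on the log2 scale. HBB, KRT5 and COL1A2, listed at 0 in replicate 2 as given above, were also called higher in replicate 3. Of the 5 fibroblast markers 2 were called higher, COL1A2 among them, and 1 was called lower. Their sum went from 18.0 to 20.9 CPM in pBabe-Gα13 and from 23.9 to 12.8 CPM in pBabe-vector. Of the non-polyadenylated RNAs, RN7SL1 fell from 159 to 93.1 CPM in pBabe-Gα13 and from 149 to 121 CPM in pBabe-vector (log2 fold change −0.53, SE 0.09, adjusted p = 1.96e-05 in edgeR), and RN7SL2, another RNA of the signal recognition particle, fell by 0.45 (SE 0.09). Of the 13 mitochondrial genes 8 rose and 0 fell. The part of these genes in the histone values was not tested. The summed histone ratio between replicates was 0.806 in pBabe-Gα13, where HBB reached 33.5 CPM, and 0.859 in pBabe-vector, where it reached 3.08 CPM.

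**Figure D4:**
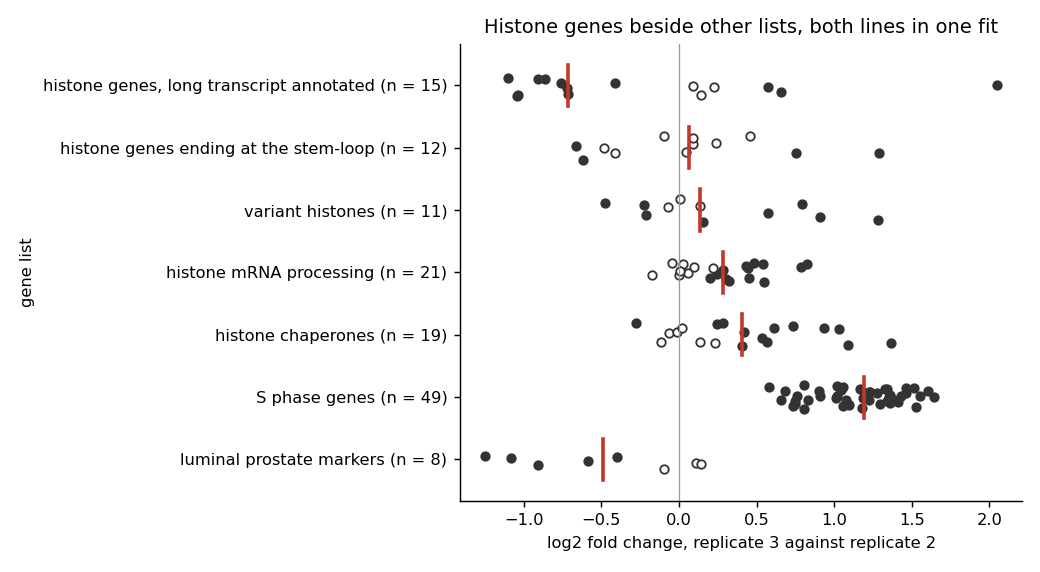
Log2 fold change of replicate 3 against replicate 2 (both lines in 1 edgeR fit) for single genes of 7 lists, filled where the adjusted p was under 0.05, with the median of each list as a red bar. Only histone genes averaging 1 CPM or more are drawn. All 49 S phase genes lie between 0.58 and 1.64, whereas the 15 long-transcript histone genes have a median of −0.71 and the 12 ending at the stem-loop a median of 0.07.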

How the data were processed

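RNA-seq counts of 6 libraries were used, 3 per line. Per the labels and the study's methods, reads were checked with FastQC 0.11.7, aligned with STAR with annotation from Gencode 38 and counted per gene with featureCounts, and the authors deposited whole-number counts that were not normalized. Strand and multi-mapping settings and the RNA selection are not given in the sources used here. Each bears on near-identical genes or on genes whose usual message lacks introns and a poly(A) tail. Symbols in the table are older than those of Gencode 38, and all 33 were matched to current symbols. Values in counts or log2 CPM had been foreseen, and the count test was used.

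Counts were scaled by TMM and fitted over all 17297 genes with edgeR's quasi-likelihood test (edgeR 4.0.16, R 4.3.3), with Benjamini-Hochberg adjustment and a threshold of 0.05. The fits were line alone, std against other libraries with line as covariate, and replicate 3 against replicate 2 with line and pair. P-values of the fit of line alone and of the std fit are set against the spread between these libraries. In the replicate fit and the blocked fits, differences between pairs are taken out. Their p-values are set against how far the difference between the lines varies from pair to pair. For replicate 3 against replicate 2 they do not measure the spread between cultures. Limma 3.58.1 (prior count 2), DESeq2 1.42.0, other scalings, filters, left-out libraries and a replicate block were alternatives. Same-pair libraries of the 2 lines deviated together from their line means (Pearson's r 0.659, 0.807 and 0.888 over 12778 genes, across genes, which are not independent replicates). Other combinations gave −0.736 to 0.125, and the numbers were taken as pairs. Deviations within a line sum to 0, so positive same-pair values draw the other values down. The pairing was read from the same counts that the blocked fits test. The scripts were tested on simulated data. Floors use 3 reads and cover only the counting error of the group without reads.

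The genes described singly were the 3 highest per kilobase in each class, the 5 with the smallest p in each comparison among those averaging 1 CPM or more, and the largest rise and fall of each class between replicates. From the other lists they were those with the smallest p. HIST2H2BC, HIST2H2BD, HIST1H2BC, HIST1H2BE, HIST1H2BN, HIST3H2BB, HIST1H2BH, HIST1H4PS1 and HIST4H4 lie outside that rule and were named after their values were seen. The members and all lists were chosen with earlier results of these data known. Sequences came from Gencode 44 transcripts (GRCh38) and RefSeq promoters (GRCh38.p14).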

Additional observations from a re-analysis of the deposited data

Results flagged for a closer look

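For 6 histone genes, none of which passed the test over both lines, the difference between replicate 3 and replicate 2 had opposite signs in the 2 lines. In log2 CPM, HIST1H3B differed by −1.35 in pBabe-Gα13 and by 0.95 in pBabe-vector, where it had 4 and 9 reads. HIST1H2AC differed by −0.15 and 0.32, HIST1H4E by −0.90 and 0.13, HIST1H2AE by −0.22 and 0.0533, HIST1H4I by −0.0426 and 0.14, and HIST1H2BK by 0.25 and −0.0587. The difference between the lines was tested in an edgeR fit chosen after seeing the data, with line, pair and a term for that difference. It leaves 1 residual degree of freedom and rests on the assumption that the std pair differs between the lines by the midpoint of the other pairs. In it 0 of the 33 histone genes had an adjusted p under 0.05, against 17 of all genes (0.0983%), and 3 had an unadjusted p under 0.05, against 746 (4.31%). These were HIST1H3B (difference of −2.60 on the log2 scale, SE 1.08, adjusted p = 1), HIST1H2AC (−0.47, SE 0.19, adjusted p = 0.933) and HIST1H4E (−1.06, SE 0.47, adjusted p = 1). For HIST1H2AE, HIST1H4I and HIST1H2BK the differences were −0.28 (SE 0.49), −0.18 (SE 0.21) and 0.30 (SE 0.17).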

How the results depend on the processing

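For Gα13 against vector, where edgeR called 0 histone genes, DESeq2 called 2, the replicate block 6, the block with each chromosome centred 6, and the block with 1 pair left out 3 to 7 (3, 5 and 7). Leaving out single libraries gave 0 calls and a median log2 fold change of 0.04 to 0.24. Without pBabe-Gα13 replicate 2, HIST2H2BE turned to −0.0723 (0.58 at the other extreme) and HIST1H4H to −0.0436 (0.63), and without the pBabe-vector std library HIST1H2AC turned to −0.0405 (0.46), and the cause was not tested.

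For std against the other libraries, with 0 calls, DESeq2 called 1, the replicate block 5, and the std pair against replicate 2 or replicate 3 alone 11 or 10. The median of −0.19 became −0.11 with library totals alone and −0.0612 against replicate 3 alone, and ranged from −0.31 to −0.11 with 1 library left out, where 0 genes were called.

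For replicate 3 against replicate 2, the 18 calls became 11 with limma-trend and 13 to 17 with 1 library left out, with medians from −0.20 to 0.04. The block is part of that fit. The remaining counts stayed within 1.5 times, including those of the newer edgeR method, which was added after seeing the data. Genes near 1 CPM, such as HIST1H3B, are limited by depth, and HIST1H4K by its 11 reads in replicate 2.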
